A study of Gallus gallus with 5 samples.

Results

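Epiblast cells of the gastrulating chicken embryo were examined in single-cell RNA-sequencing libraries of embryos that received grafts at Hamburger-Hamilton stage 4 (HH4), when the primitive streak is fully extended. The cells were chosen by their own RNA. A barcode counted as a member when it had at least 2000 UMIs (unique molecular identifiers, which count RNA molecules), at least 5 UMIs of SOX3, GBX2 and EDNRB together, MSGN1 below 1000 CPM (UMIs per 1000000 UMIs), fewer than 3 UMIs of MEOX1 and TCF15 together, GSC and CER1 together below 500 CPM, GNOT2 and ADMP together below 300 CPM, and fewer than 3 SOX17 UMIs. The first clause asks for epiblast genes and the others remove mesoderm, node and endoderm. This gave 880 members among 4929 barcodes of the same depth, and the remaining 4049 barcodes are called the other barcodes throughout. Since measured values chose the members, every comparison with the other barcodes is a description without a p-value.

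The epiblast is the outer epithelial sheet of the embryo, held together by tight, adherens and gap junctions over a basement membrane. At the primitive streak its cells lose these contacts, ingress and become mesoderm or endoderm, while cells that stay in the sheet go on to form ectoderm and neural plate. SOX3 is a transcription factor of early epiblast and neural plate, GBX2 a homeobox factor of posterior epiblast, and EDNRB an endothelin receptor. PDGFA is the ligand of the PDGF receptor PDGFRA, which gastrulating mesoderm carries, and GJA1 is the gap junction protein connexin 43.

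The grafts moved somite progenitors of the streak from donor embryos expressing eGFP to the matching place in wild-type HH4 hosts. In HH8-HH4 grafts the donors were at HH8 (30 hr of incubation), and in HH4-HH4 grafts donor and host were both at HH4 (20 hr). The region around the graft was dissected at 3 hr or at 0 hr (30 min) after grafting and 5 to 10 grafts were pooled per library, so a library is a pool of embryos and each condition holds 1 library. Members of HH8-HH4 libraries were limited to barcodes without eGFP UMIs and are taken as host cells. Donor cells whose eGFP RNA was not captured would pass too, and their part was not tested. Members of HH4-HH4 libraries hold donor and host cells, all of them from embryos that were at HH4 when grafted. Embryos of the 3 hr libraries developed for 3 hr more before dissection, and the stage they had reached was not examined. HH4-HH4 0 hr was deposited as 2 replicates that share 2755 barcodes, including all 548 members, and only replicate 2 was counted. Any other pair of libraries shared at most 2 barcodes and no member.

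HH8-HH4 3 hr held 26 members among 232 barcodes of the stated depth and eGFP rule, HH8-HH4 0 hr 277 among 1726, HH4-HH4 3 hr 29 among 273 and HH4-HH4 0 hr 548 among 2698. Wherever 4 values are listed below, they follow this order of libraries. Members had median depths of 25718, 10060, 50141 and 15934.5 UMIs, and the other barcodes 19743.5, 8917, 40193.5 and 13966. Members were thus deeper than the other barcodes in each library, and both 3 hr libraries were deeper than both 0 hr libraries. Summed over members, the libraries gave 768715, 2905187, 1650798 and 9533379 UMIs.

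The share of barcodes that passed was 11.2% in HH8-HH4 3 hr (95% exact Clopper-Pearson interval 7.45 to 16.0) and 16.0% in HH8-HH4 0 hr (14.3 to 17.9). Among HH4-HH4 grafts it was 10.6% at 3 hr (7.23 to 14.9) and 20.3% at 0 hr (18.8 to 21.9). These intervals, like all others given here, cover counting error only. The share moved with depth inside libraries. In HH4-HH4 0 hr it was 7.14% of 112 barcodes with 2000 to 5000 UMIs and 33.4% of 428 barcodes with 20000 to 40000 UMIs, and in HH8-HH4 0 hr it was 5.31% of 113 and 33.3% of 12 barcodes in the same ranges. Among barcodes with 20000 to 40000 UMIs, HH8-HH4 3 hr had 17.3% (10.4 to 26.3) and HH4-HH4 3 hr 6.60% (2.70 to 13.1). Thinned to 5000 UMIs per barcode before the clauses were applied, an alternative added after the data were seen, the shares were 2.69%, 9.18%, 1.89% and 9.13%. The rule asks for a number of UMIs, so a share in it depends on depth, and a difference of shares between libraries cannot be told apart from depth and dissection.

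**Figure D1:**
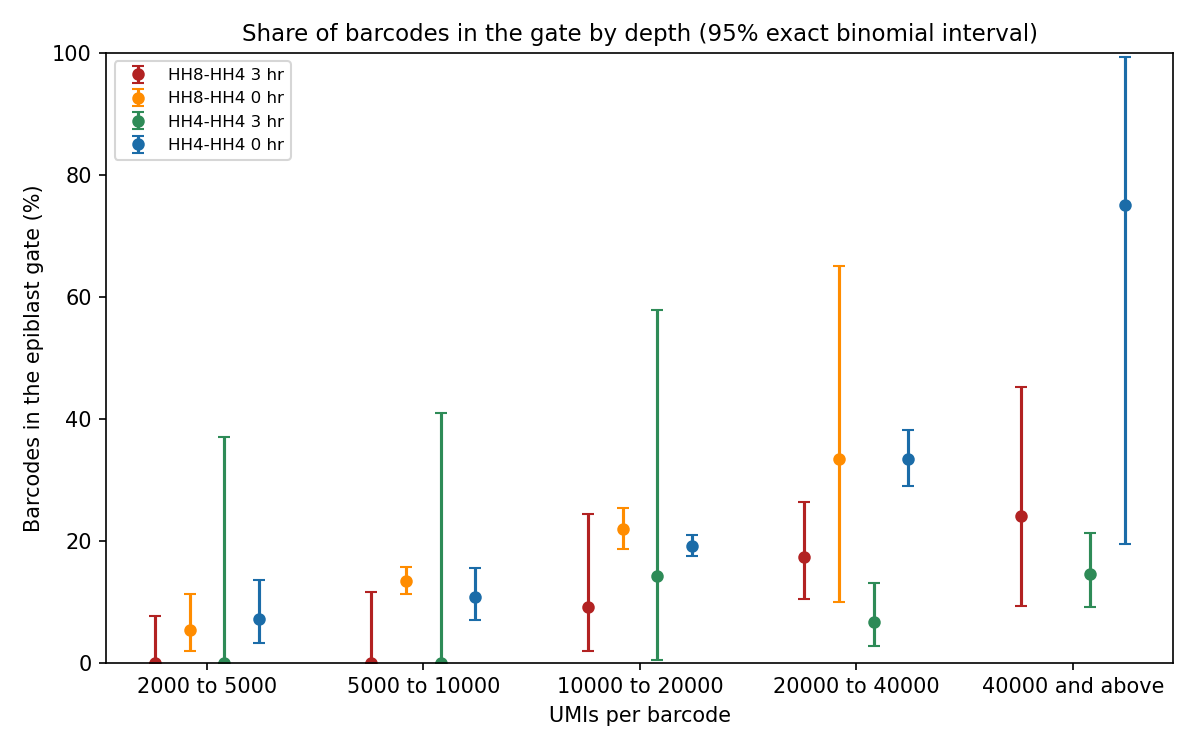
Share of barcodes that passed the epiblast rule (vertical axis, %) in 5 ranges of UMIs per barcode (horizontal axis) for the 4 libraries, with exact binomial 95% intervals. In HH4-HH4 0 hr the share was 7.14% in the shallowest range and 33.4% at 20000 to 40000 UMIs.

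The markers were first checked against the label. Members carried UMIs of SOX3, GBX2 and EDNRB all at the same time in 20 of 26, 209 of 277, 25 of 29 and 441 of 548 cases, so the sum of 5 was rarely reached through 1 gene alone (0, 3, 0 and 6 members). In the 3 libraries other than HH4-HH4 3 hr, all 5 epiblast markers were higher in members than in the other barcodes, but SOX3, GBX2 and EDNRB chose the members and only PDGFA and GJA1 lie outside the rule. Both were listed with earlier results of these data known, so they are no independent check of the label. T, a marker of the streak, was higher in members of each library by less than 2-fold, while the streak genes MIXL1 and EOMES were lower in each. The name epiblast thus does not exclude cells of the streak in any library. In HH4-HH4 3 hr further values go against the label in part. There SOX3 was at 86.0 CPM in members against 107 CPM in the other barcodes, and GBX2 at 184 against 185 CPM. FGF8, a signal of the streak and of the young mesoderm, was at 514 against 193 CPM, and HOXB8, a posterior Hox gene, at 199 against 63.9 CPM. EDNRB at 118 against 60.3 CPM, PDGFA at 109.6 against 75.1 CPM and GJA1 at 1323 against 732 CPM were higher in members there too. The 29 barcodes of this library are therefore called members by the rule only, and values are given with and without this library.

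The clauses removed different cells in that library. Of its 191 barcodes with the marker sum, 69 exceeded the limit on MSGN1, 90 that on MEOX1 and TCF15, and 60 were lost to the node clause alone. The 29 members had SOX3 at 86.0 CPM, PDGFA at 109.6 CPM, CDH11 at 83.6 CPM and GNOT2 at 130.2 CPM, whereas those 60 barcodes had SOX3 at 282 CPM, PDGFA at 206 CPM, CDH11 at 196 CPM and GNOT2 at 769 CPM. SOX3, PDGFA and CDH11 were thus lower in members than in the barcodes that the node clause turned away, as was GNOT2, on which that clause rests. In the other libraries the node clause alone removed 23 of 61 (HH8-HH4 3 hr), 107 of 429 (HH8-HH4 0 hr) and 92 of 715 (HH4-HH4 0 hr) marker-positive barcodes. Of 5 barcodes of HH4-HH4 3 hr that passed all clauses at 5000 UMIs, 1 was also a member at full depth.

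Near the threshold, 5, 66, 4 and 87 members had a marker sum of 5 or 6 UMIs, while 9, 60, 8 and 115 barcodes that met the other clauses had 3 or 4. In HH4-HH4 0 hr PDGFA was at 29.0 CPM just inside and 16.0 CPM just outside, GJA1 at 1249 and 1037 CPM, CDX2 at 248 and 142.8 CPM, CDH11 at 83.7 and 41.5 CPM and T at 2684 and 2735 CPM. In HH8-HH4 0 hr PDGFA was at 83.3 and 50.0 CPM and CDX2 at 727 and 575 CPM. HH4-HH4 3 hr had the opposite order, with PDGFA at 23.7 and 66.7 CPM, GJA1 at 533 and 1439 CPM and CDX2 at 551 and 1235 CPM. For HH8-HH4 3 hr PDGFA was at 20.3 and 16.9 CPM and CDX2 at 324 and 102 CPM, but CDH11 at 40.5 and 93.2 CPM. Both 3 hr libraries had few barcodes on either side of the threshold.

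The chosen markers had the following levels. SOX3 was at 204, 449, 86.0 and 416 CPM in members, against 82.4, 106, 107 and 61.1 CPM in the other barcodes. GBX2 was at 213, 328, 184 and 201 CPM in members, against 65.6, 76.9, 185 and 39.0 CPM in the other barcodes, and EDNRB at 167, 221, 118 and 236 CPM in members, against 38.7, 37.4, 60.3 and 26.4 CPM in the other barcodes. These 3 genes stand in the rule. PDGFA and GJA1 do not, although they were listed as epiblast markers with earlier results of these data known. PDGFA was at 68.9, 133, 109.6 and 82.6 CPM in members, against 12.2, 22.5, 75.1 and 10.1 CPM in the other barcodes, and its mean log2 ratio, with 10 CPM added to both values as in all ratios below, was 1.67 ± 0.80 (SD, n = 4 libraries) and 2.06 without HH4-HH4 3 hr. GJA1 was at 1383, 1978, 1323 and 1613 CPM in members, against 638, 885, 732 and 663 CPM in the other barcodes, with a mean log2 ratio of 1.09 ± 0.18 over the 4 libraries and 1.18 without HH4-HH4 3 hr. Members were above the other barcodes in each library for both genes, with the smallest difference in HH4-HH4 3 hr.

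**Figure D2:**
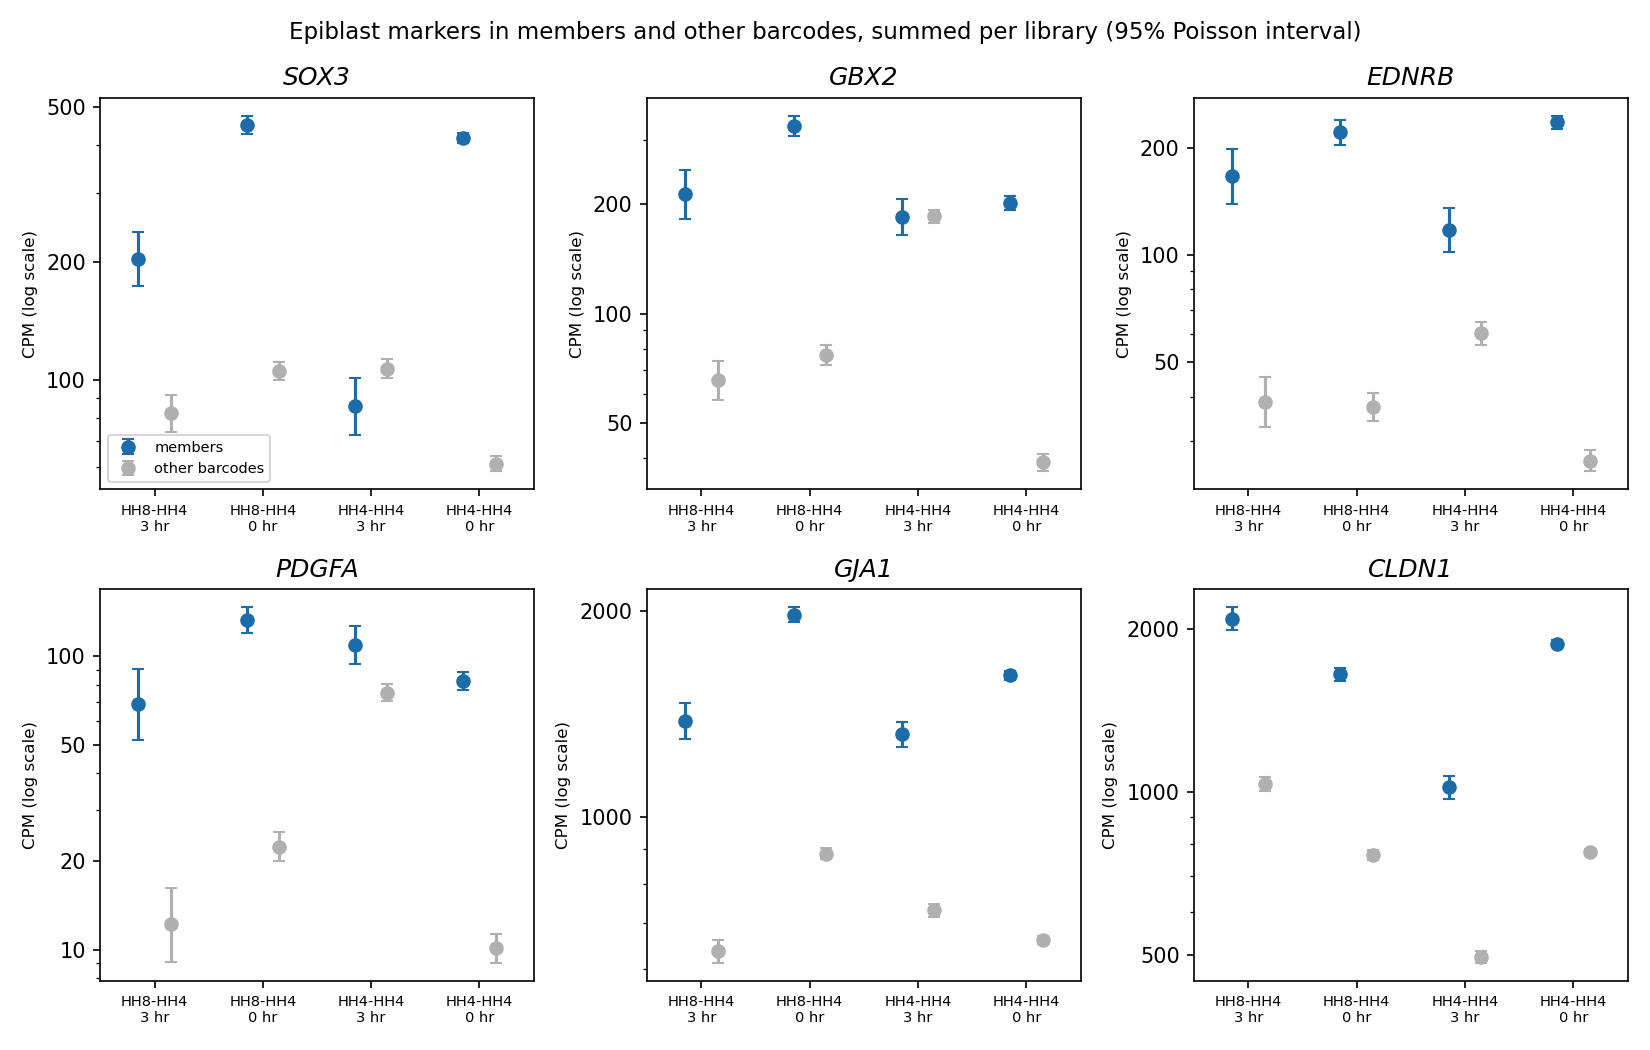
Levels of the 5 epiblast markers and of CLDN1 in CPM (vertical axes, log scale) in members (blue) and other barcodes (grey), each summed over a library, with exact Poisson 95% intervals. SOX3 and GBX2 of members lie above the other barcodes in 3 libraries and not in HH4-HH4 3 hr, where SOX3 was at 86.0 and 107 CPM, while CLDN1 of members lies above in all 4.

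Across the transcriptome few genes followed the rule. A gene was counted as different when it was past 2-fold in the same direction in each library, among 4666 genes with at least 100 UMIs. A single gene, CLDN1, was higher in each of the 4 libraries (0.0214% of genes), and 30 genes were lower (0.643%), of which SOX17, MSGN1, MEOX1 and TCF15 stand in the rule. With 0 eGFP UMIs required in every library, no gene was higher in all 4, CLDN1 having a mean log2 ratio of 1.01 there, and 22 were lower. Without HH4-HH4 3 hr, 12 genes were higher (0.257%) and 47 lower (1.01%). Within single libraries 22, 23, 9 and 25 genes were past 2-fold upward and 87, 87, 64 and 70 downward.

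CLDN1, a claudin that seals tight junctions, was at 2093, 1650.2, 1020.1 and 1879 CPM in members, against 1034, 764, 496 and 773 CPM in the other barcodes. It was higher in members within each library, although the ranges over libraries touched, and the mean log2 ratio was 1.10 ± 0.12 (SD, n = 4 libraries). Besides SOX3, GBX2 and EDNRB, the 12 genes higher without HH4-HH4 3 hr were PDGFA, GJA1, CLDN1, CDX2, CDX4, CDH11, SP8, GAD1 and BMP4. CDX2 and CDX4 are caudal homeobox factors of posterior tissue. CDX2 was at 277, 739.7, 1003 and 356 CPM in members, against 75.1, 202, 652 and 70.3 CPM in the other barcodes, higher in members of every library but by least in HH4-HH4 3 hr. CDX4 was at 45.5, 239.6, 523 and 89.0 CPM in members, against 15.0, 108, 471 and 32.2 CPM in the other barcodes, and there the HH4-HH4 3 hr values lay close together. CDX1, the remaining caudal gene, was at 33.8, 68.8, 187 and 17.7 CPM in members, against 7.74, 23.0, 135 and 4.75 CPM in the other barcodes.

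CDH11, a type II cadherin, was at 139, 194, 83.6 and 197 CPM in members, against 32.7, 34.5, 84.2 and 29.8 CPM in the other barcodes. Its log2 ratio was 2.13 on average without HH4-HH4 3 hr, where both groups had the same level. SP8, a zinc finger factor that acts downstream of Wnt and FGF signals in limb ectoderm, was at 54.6, 43.4, 43.0 and 29.0 CPM in members, against 14.2, 14.3, 19.2 and 5.04 CPM in the other barcodes. GAD1, the enzyme that makes GABA from glutamate, was at 22.1, 48.5, 89.0 and 20.7 CPM in members, against 2.50, 13.4, 43.6 and 4.46 CPM in the other barcodes. BMP4, a ligand that favours epidermal over neural fate in ectoderm, was at 66.3, 74.7, 83.0 and 42.7 CPM in members, against 17.7, 24.3, 47.5 and 15.4 CPM in the other barcodes. SP8, GAD1 and BMP4 were higher in members of each library and missed 2-fold in HH4-HH4 3 hr.

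The genes lowest in members came mostly from the lists of mesoderm, endoderm and node. ALDH1A2, the enzyme that makes retinoic acid in mesoderm, was at 0, 10.7, 6.66 and 5.56 CPM in members, against 33.4, 213, 399 and 76.5 CPM in the other barcodes, a mean log2 ratio of -3.16 ± 1.12 (SD, n = 4 libraries). No ALDH1A2 UMI was found in members of HH8-HH4 3 hr. FOXC2, a forkhead factor of paraxial mesoderm, had no UMI in members of either HH8-HH4 library and was at 0, 0, 1.21 and 0.524 CPM in members, against 36.9, 32.2, 53.0 and 33.8 CPM in the other barcodes. AGRP, listed with ingressed mesoderm, was at 242, 109.8, 55.1 and 189 CPM in members, against 589.6, 845, 435 and 913 CPM in the other barcodes, and CXCL14, a chemokine of the same list, at 93.7, 110.5, 62.4 and 153 CPM in members, against 215, 304, 269 and 363 CPM in the other barcodes. Of 8 ingressed mesoderm markers 7 were tested and 4 were past 2-fold lower in all libraries (AGRP, ALDH1A2, CXCL14 and MSGN1, a gene of the rule). Over all 4666 genes tested, 30 were (0.643%). The list's median log2 ratio was -1.48 against 0.00 over all genes tested. All 3 tested paraxial mesoderm markers were lower as well, 2 of which (MEOX1 and TCF15) stand in the rule. Since the rule limits MSGN1, MEOX1 and TCF15, low levels of genes that accompany them follow in part from the choice of members.

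Endoderm markers were lower throughout. All 7 were past 2-fold in each library, with SOX17 standing in the rule, where 30 of all 4666 genes tested were (0.643%). Their summed level was 83, 57, 39 and 79 CPM in members. GATA6, a zinc finger factor of endoderm, was at 7.81, 0.344, 1.82 and 1.68 CPM in members, against 65.4, 97.0, 23.8 and 85.9 CPM in the other barcodes. LOC395991, a marker of the same list, was at 20.8, 5.51, 2.42 and 5.56 CPM in members, against 219, 178, 65.1 and 144 CPM in the other barcodes, and KRT7, a keratin, at 2.60, 3.79, 1.82 and 3.25 CPM in members, against 51.2, 62.1, 39.5 and 29.6 CPM in the other barcodes. GATA5, APOA1 and CXCR4, the receptor of the chemokine CXCL12, had mean log2 ratios of -1.72, -1.77 and -1.72. Since fewer than 3 SOX17 UMIs were required, low levels of genes that accompany SOX17 follow in part from the choice of members.

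Markers of the anterior node and prechordal plate were also lower. CHRD, the secreted BMP antagonist chordin, was at 513, 84.3, 48.5 and 318 CPM in members, against 1864, 511, 477 and 783 CPM in the other barcodes, so members of HH8-HH4 3 hr and of HH4-HH4 0 hr still carried it. FOXA2, a forkhead factor of node and endoderm, was at 36.4, 17.2, 6.06 and 27.8 CPM in members, against 142, 96.0, 29.6 and 87.9 CPM in the other barcodes. All 6 genes of this list, GSC and CER1 of the rule included, were lower in each library, 2 of them past 2-fold in all 4. Over all 4666 genes tested, 779 were lower in each library and 30 past 2-fold in all 4. The rule limits GSC and CER1, so these low levels too follow in part from the choice of members. POMC, the hormone precursor pro-opiomelanocortin, was at 2.60, 6.20, 6.66 and 13.0 CPM in members, against 50.4, 49.0, 45.2 and 81.1 CPM in the other barcodes, and GATA2, a factor of non-neural ectoderm and blood, at 5.20, 2.41, 1.21 and 1.68 CPM in members, against 52.7, 36.9, 20.8 and 28.5 CPM in the other barcodes. KDR, the VEGF receptor of vessel precursors, was at 1.30, 1.03, 1.82 and 0.734 CPM in members, against 14.5, 6.91, 13.8 and 11.3 CPM in the other barcodes.

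**Figure D3:**
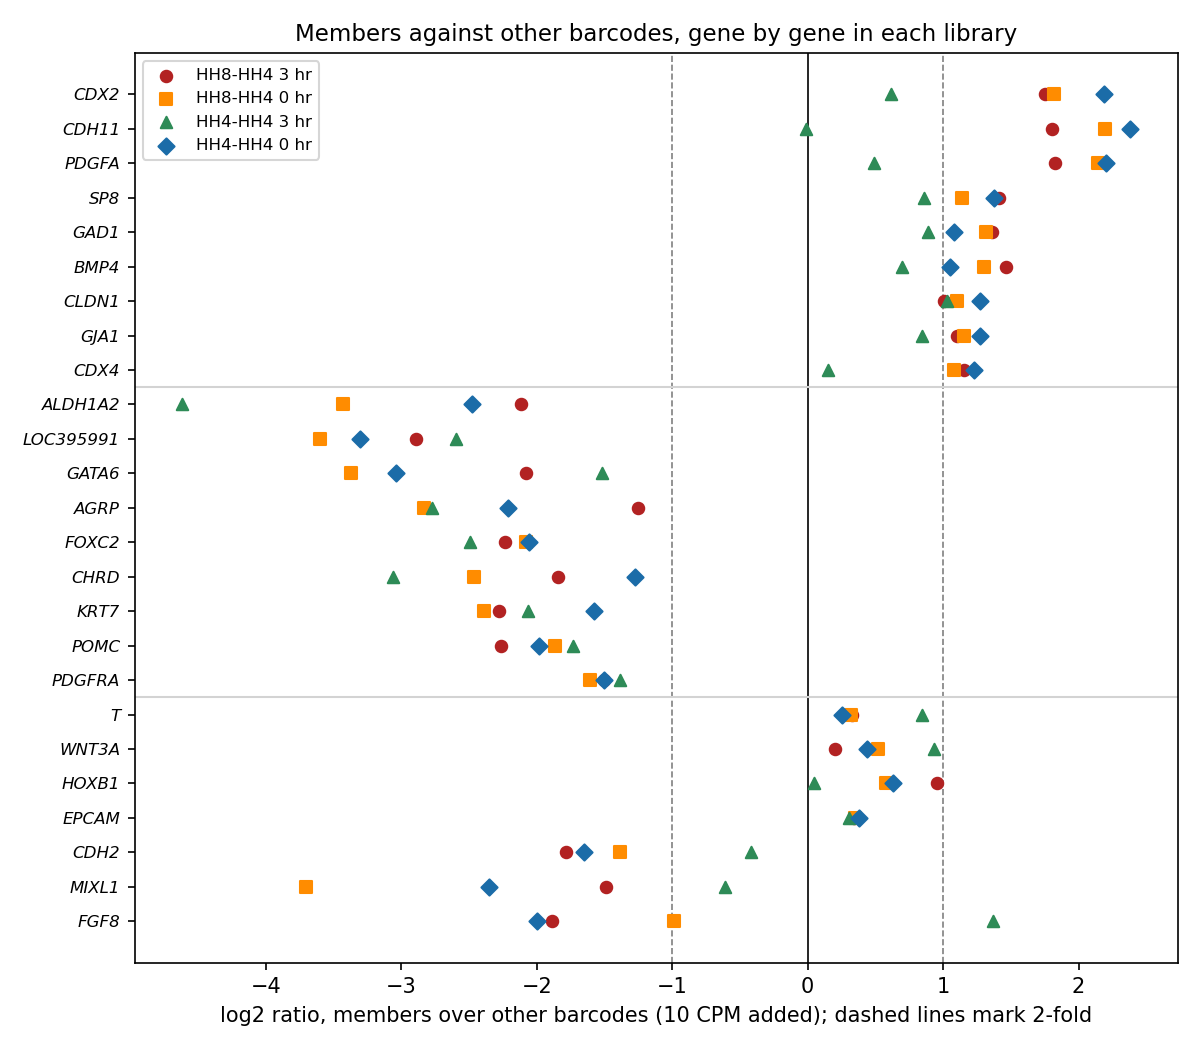
Log2 ratios of members over other barcodes (horizontal axis, 10 CPM added) for genes named in the text (rows), with 1 symbol per library and dashed lines at 2-fold. The upper block is past 2-fold in the 3 libraries other than HH4-HH4 3 hr (green triangles), the middle block is below -1 in all 4, and in the lowest block FGF8 lies at 1.37 in HH4-HH4 3 hr and below 0 in the other libraries.

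Summed levels of ligand and receptor of the PDGF pathway differed in opposite directions between members and the other barcodes. Whether single barcodes carried both was not tested. PDGFRA was at 1.30, 0.688, 1.82 and 1.05 CPM in members, against 22.0, 22.5, 20.9 and 21.4 CPM in the other barcodes, with the same sign in each library and a mean log2 ratio of -1.50 ± 0.09 (SD, n = 4 libraries), whereas PDGFA had 1.67. In the endothelin pathway no ligand was tested, and EDNRB is part of the rule. EDNRA, the other receptor, was at 2.60, 5.85, 6.66 and 3.25 CPM in members, against 3.49, 3.45, 3.64 and 3.56 CPM in the other barcodes, and ECE1, the enzyme that activates endothelins, was at 68.9, 51.3, 54.5 and 57.4 CPM in members, against 49.4, 50.9, 34.6 and 45.2 CPM in the other barcodes.

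Junction genes went in both directions, with 6 of the 11 tested higher in members of each library and 3 lower in each. Over all 4666 genes tested, 762 were higher and 779 lower in each. Of 16 listed junction genes 11 were tested, 1 (CLDN1) was past 2-fold in all libraries and 2 (CLDN1 and GJA1) without HH4-HH4 3 hr, and the list's median was 0.22 against 0.00 over all genes. EPCAM, an epithelial adhesion molecule, was at 1097, 1175, 648 and 1337 CPM in members, against 861, 918, 522 and 1023 CPM in the other barcodes, higher in members of each library but by less than 2-fold, with a log2 ratio of 0.35 ± 0.03 (SD, n = 4 libraries). CDH1, E-cadherin, was at 72.8, 58.9, 63.6 and 70.2 CPM in members, against 61.7, 57.8, 47.3 and 55.0 CPM in the other barcodes. CLDN3 was at 29.9, 17.2, 10.9 and 26.5 CPM in members, against 100.3, 53.1, 40.1 and 61.0 CPM in the other barcodes, on the opposite side of CLDN1. EZR, ezrin, which ties membrane to actin at the apical surface, had a mean log2 ratio of -0.82.

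Genes of the epithelial-to-mesenchymal transition were split. Of 12 listed genes 10 were tested and none was past 2-fold in all libraries, while without HH4-HH4 3 hr CDH11 was higher and CDH2 lower among them. CDH2, N-cadherin, which ingressing cells take up in place of E-cadherin, was at 302, 459, 867 and 307 CPM in members, against 1064, 1214, 1159 and 983 CPM in the other barcodes. Members of HH4-HH4 3 hr had the highest CDH2 level of the 4 member groups. SNAI2, which represses epithelial genes at ingression, was at 126, 125 and 223 CPM in members of the 3 libraries other than HH4-HH4 3 hr, against 481, 505 and 567 CPM in the other barcodes, past 2-fold lower in each. It was not analysed in the remaining library and is thus not among the tested genes. VIM, vimentin, was at 629.6, 406, 397 and 783 CPM in members, against 588, 475, 386 and 685 CPM in the other barcodes, with no common direction. RHOB, a small GTPase, was higher in members of each library, with a mean log2 ratio of 0.84. Of 14 basement membrane and matrix genes 6 were tested and none was past 2-fold. FN1, fibronectin, had a mean log2 ratio of -0.15 ± 0.23 and LAMA1, a laminin chain, of 0.40 ± 0.28 (SD, n = 4 libraries).

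Streak genes did not move together. T (brachyury), which marks the streak and nascent mesoderm, was at 2417, 1915, 1739.8 and 2202 CPM in members, against 1925, 1532, 965 and 1847 CPM in the other barcodes, higher in members of each library by less than 2-fold. WNT3A, a posterior Wnt ligand, was at 68.9, 124, 136 and 97.1 CPM in members, against 58.7, 83.9, 66.5 and 69.0 CPM in the other barcodes. MIXL1, a homeobox factor of streak and endoderm, was at 887, 140.1, 86.6 and 378 CPM in members, against 2509.6, 1942, 138 and 1972 CPM in the other barcodes, and EOMES, a T-box factor of the same cells, at 199, 64.4, 24.2 and 196 CPM in members, against 412, 311, 28.9 and 417 CPM in the other barcodes. Both were lower in each library and past 2-fold without HH4-HH4 3 hr. FGF8 was at 52.0, 167, 514 and 62.9 CPM in members, against 219.9, 341, 193 and 281 CPM in the other barcodes, lower in members of 3 libraries and higher in HH4-HH4 3 hr.

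Signalling lists gave few genes past 2-fold. Of 21 tested Wnt genes none was past it in all libraries, and 1 (SP8) was without HH4-HH4 3 hr. WNT8A and WNT5A, a non-canonical ligand, had mean log2 ratios of 0.72 ± 0.18 and 0.81 ± 0.24 (SD, n = 4 libraries), higher in members of each library. Of 16 tested FGF genes none was past 2-fold, with FGFR1, the receptor, at 160.0, 148, 147 and 145 CPM in members, against 102, 110.4, 121 and 92.9 CPM in the other barcodes and FGFR3 at 113, 144, 36.3 and 119.9 CPM in members, against 64.4, 72.4, 68.1 and 56.1 CPM in the other barcodes. FGFR3 was thus higher in members except in HH4-HH4 3 hr.

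Of 19 tested BMP genes CHRD was lower in all libraries, and without HH4-HH4 3 hr BMP4 was higher and CHRD and ADMP, a gene of the rule, were lower. ID2, a target of BMP signals, was at 206, 193, 157 and 171 CPM in members, against 89.1, 91.9, 109 and 61.3 CPM in the other barcodes. Of 11 tested Nodal genes LEFTY1, an inhibitor of Nodal, was past 2-fold in all 4, at 41.6, 7.92, 3.63 and 80.1 CPM in members, against 334, 56.8, 20.0 and 207 CPM in the other barcodes. Of the same 11 genes 9 were lower in each library, where over all 4666 genes 779 were. The list's median log2 ratio was -1.12 against 0.00 over all genes. GSC and CER1 of this list stand in the rule, so the low levels follow in part from the choice of members. Of 6 tested Notch genes none was past 2-fold, the ligand DLL1 being at 455, 882, 731 and 751 CPM in members, against 307, 826, 689.7 and 636 CPM in the other barcodes. Of 6 tested retinoic acid genes ALDH1A2 alone was past 2-fold, and RDH10, which makes the precursor retinaldehyde, was at 24.7, 37.2, 33.3 and 29.1 CPM in members, against 43.2, 161, 192 and 80.6 CPM in the other barcodes.

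Factors of early epiblast and neural plate differed gene by gene. Of 11 tested pluripotency and early epiblast factors none was past 2-fold in all libraries, and their mean log2 ratios lay between -1.04 for OTX2 and 1.38 for SOX3 of the rule. Pou5f3, the chicken counterpart of OCT4, was at 526, 731, 652 and 756 CPM in members, against 402, 589.5, 461 and 555 CPM in the other barcodes, and SALL4, a zinc finger factor of the same network, at 619, 546, 461 and 574 CPM in members, against 650.2, 534, 344 and 557 CPM in the other barcodes. SOX2, the later neural plate factor, was at 1.30, 23.4, 19.4 and 9.23 CPM in members, against 1.75, 3.53, 12.5 and 0.739 CPM in the other barcodes, a low level in every group but higher in members of both 0 hr libraries. Of 19 tested neural plate and border factors GATA2 was lower in all libraries, and SOX11 was at 445, 769, 869 and 590.0 CPM in members, against 403, 754, 738 and 566 CPM in the other barcodes. Of 7 early neural markers none was past 2-fold. OTX2, a factor of anterior epiblast and prechordal plate, had a log2 ratio of -1.04 over the 4 libraries and -1.33 without HH4-HH4 3 hr.

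Posterior genes mostly leaned upward. Of 13 tested, 8 were higher in members of each library and none lower in each, where over all 4666 genes 762 were higher and 779 lower in each. The list's median log2 ratio was 0.44. HOXB1, an early posterior Hox gene, was at 337, 450.2, 659.7 and 252 CPM in members, against 169, 299, 639 and 159 CPM in the other barcodes, and MSX1, a homeobox factor of posterior and lateral epiblast, at 149.6, 305, 372 and 180.0 CPM in members, against 103, 206, 165 and 143 CPM in the other barcodes. The lists of cell division were level, with medians of 0.19 for 10 G1 and S phase genes and -0.06 for 11 G2 and M phase genes, none past 2-fold. CCND1, cyclin D1, had a mean log2 ratio of 0.60 ± 0.20 (SD, n = 4 libraries), higher in members of each library. For 10 genes of stress after dissociation the median was -0.03, and for 9 glycolysis genes -0.03, none past 2-fold.

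HINTW, a gene of the female W chromosome, was at 3586, 8291, 6954 and 5568 CPM in members, against 2105, 4420.1, 6149.9 and 3222 CPM in the other barcodes. Members and other barcodes thus differed in the share of female embryos they came from or in the level of this gene, which cannot be told apart with pooled embryos. Barcodes with more than 500 CPM of HINTW numbered 7 of 26, 196 of 277, 17 of 29 and 247 of 548 members.

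The nearest cells outside the rule were marker-positive barcodes that failed the node clause alone. They numbered 23, 107, 60 and 92. SOX3 was at 204, 449, 86.0 and 416 CPM in members and 321, 609, 282 and 389.6 CPM in these node-clause barcodes. CDH2 was at 302, 459, 867 and 307 CPM in members and 219.5, 207, 386 and 169 CPM in the node-clause barcodes. CLDN1 was at 2093, 1650.2, 1020.1 and 1879 CPM in members and 2056, 1831, 1193 and 1891 CPM in the node-clause barcodes. T was at 2417, 1915, 1739.8 and 2202 CPM in members and 1598, 1463, 994 and 1488 CPM in the node-clause barcodes. Members had more T and more CDH2 in each library, whereas CLDN1 lay close in both groups. PDGFA was at 68.9, 133, 109.6 and 82.6 CPM in members and 41.8, 137, 206 and 48.3 CPM in the node-clause barcodes. CDH11 was at 139, 194, 83.6 and 197 CPM in members and 105, 209, 196 and 149 CPM in the node-clause barcodes. Both were higher in the node-clause barcodes of HH8-HH4 0 hr and HH4-HH4 3 hr, so neither was particular to members. MIXL1 was at 887, 140.1, 86.6 and 378 CPM in members and 1293, 1012, 76.0 and 1641 CPM in the node-clause barcodes, lower in members except in HH4-HH4 3 hr. GJA1 was at 883, 1666, 1273 and 1003 CPM in the node-clause barcodes, below members in each library. CDX2 was at 188, 536, 1225 and 162 CPM there, below members except in HH4-HH4 3 hr. Levels of both genes in the node-clause barcodes were above those of the other barcodes in each library.

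Single members spread widely. In HH4-HH4 0 hr SOX3 had a median of 368 CPM per member, with quartiles at 184.5 and 656 CPM, and T a median of 2065 CPM with quartiles at 1275 and 2839 CPM. T had at least 1 UMI in all but 5 of those 548 members and in every member of the other libraries. CDH2 had medians of 184, 341, 828 and 215 CPM per member. MIXL1 had medians of 241, 0, 0 and 69.5 CPM with highest values of 4316, 4778, 1260.1 and 6061 CPM, and it was at 0 in 4, 223, 18 and 182 members, so its summed level came from few barcodes in HH8-HH4 0 hr and HH4-HH4 3 hr. FGF8 had medians of 0, 93.4, 597 and 0 CPM and was at 0 in 15 of 26, 113 of 277, 1 of 29 and 294 of 548 members.

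**Figure D4:**
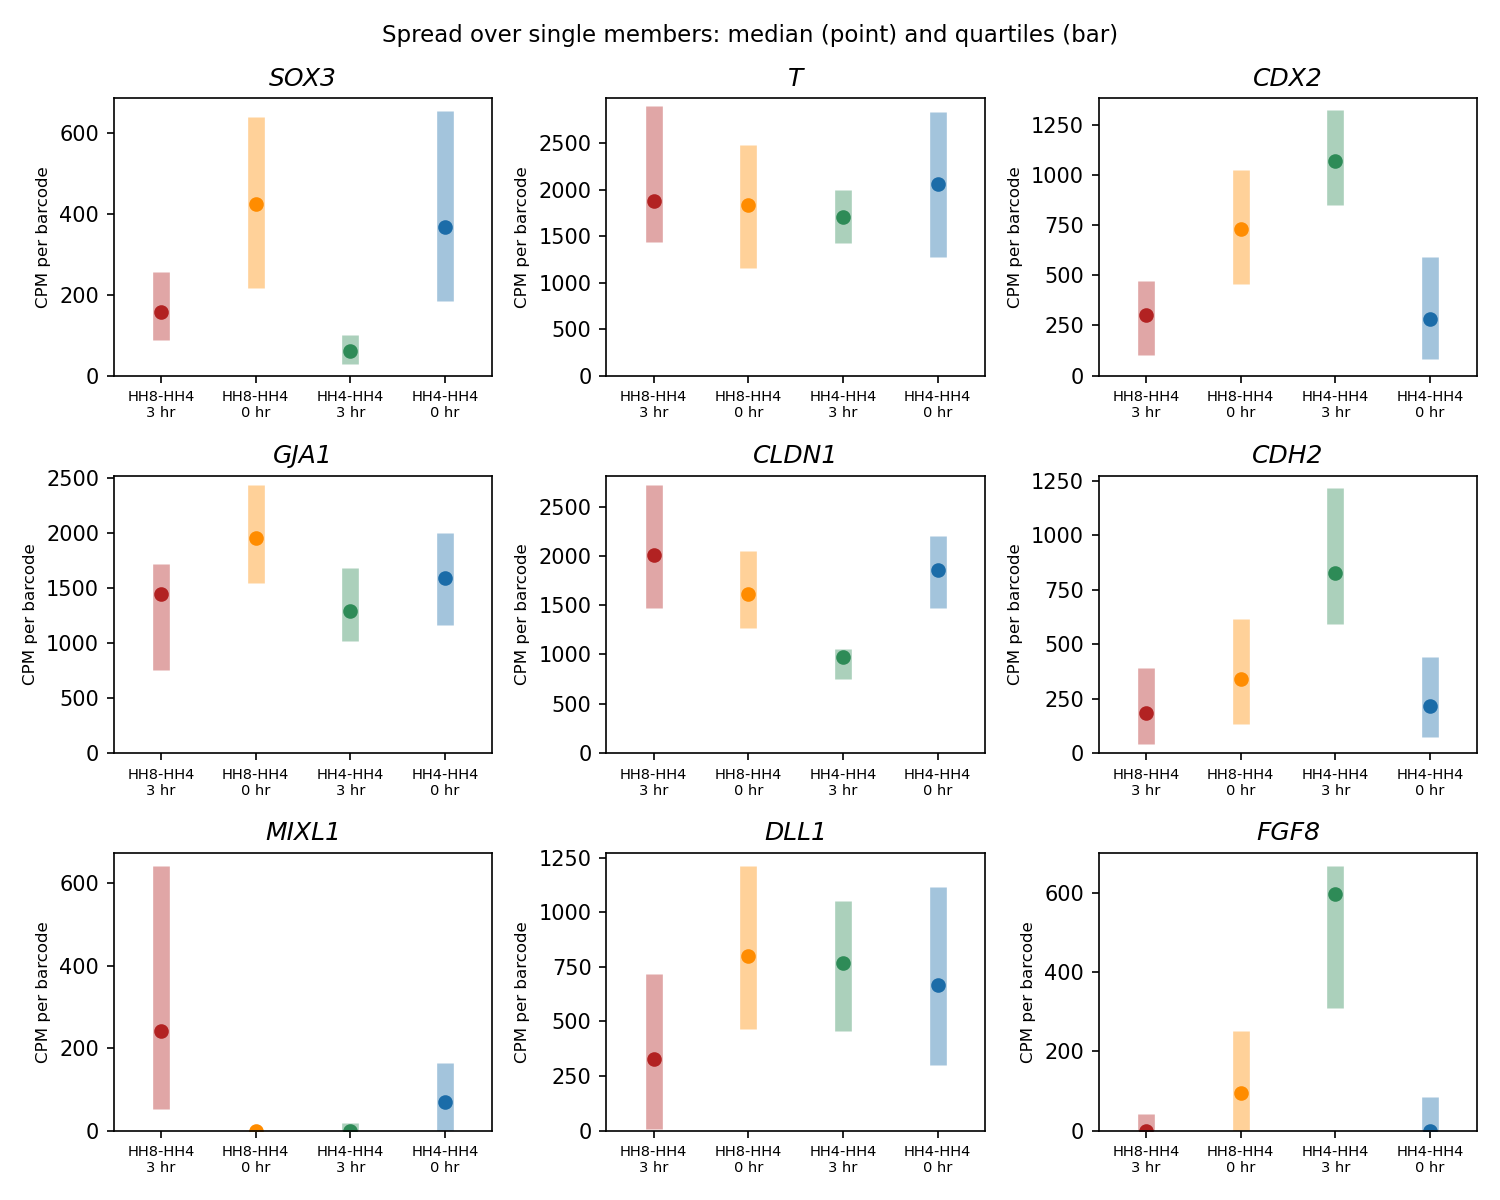
Levels in single members in CPM per barcode (vertical axes) for 9 genes and 4 libraries, with the median as a point and the quartiles as a bar. In HH4-HH4 3 hr the members had the lowest SOX3 (median 61.2 CPM) and the highest FGF8 (median 597 CPM) of the 4 libraries.

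Across members of 1 library some genes varied together. Over the 277 members of HH8-HH4 0 hr and the 548 of HH4-HH4 0 hr, Spearman's rho of T was -0.52 and -0.52 with SOX3, 0.51 and 0.55 with CDH2, 0.44 and 0.45 with SNAI2, and 0.53 and 0.63 with DLL1. SOX3 gave -0.46 and -0.45 with CDH2. Members of a library share their depth profile and free RNA, and SOX3 stands in the rule, so these values are descriptions. Depth itself gave 0.13 and 0.14 with T and -0.19 and -0.24 with SOX3. In the small libraries T and SOX3 gave 0.26 over 26 members of HH8-HH4 3 hr and -0.09 over 29 of HH4-HH4 3 hr, while T and CDH2 gave 0.57 and 0.42.

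Detection per cell was compared after each barcode had been thinned to 2000 UMIs. PDGFA then had a UMI in 26.9%, 25.6%, 3.45% and 15.9% of members, in 1.46%, 3.11%, 9.02% and 2.42% of the other barcodes, and in 0%, 0.450%, 0% and 1.02% of barcodes with 3 or more SOX17 UMIs, taken as endoderm-like cells. The unthinned shares were 76.9% of members (median 25718 UMIs), 13.1% of the other barcodes (median 19743.5 UMIs) and 11.8% of the SOX17 barcodes (median 23842 UMIs) in HH8-HH4 3 hr. In HH4-HH4 3 hr, with medians of 50141, 40193.5 and 55097 UMIs, they were 89.7%, 49.2% and 31.25% in the same order. The 17 and 16 SOX17 barcodes at 0 after thinning allow exact upper limits of 19.5% in HH8-HH4 3 hr and 20.6% in HH4-HH4 3 hr. CDX2 had a UMI in 46.2%, 69.7%, 96.6% and 47.4% of thinned members, in 13.6%, 26.3%, 59.8% and 12.4% of the other barcodes and in 17.6%, 7.21%, 12.5% and 6.44% of the SOX17 barcodes. The rule's limit on SOX17 separated members from the SOX17 barcodes, and single barcodes of a pool are not replicates. These shares are therefore descriptions. For PDGFA in HH4-HH4 3 hr the thinned share goes against the CPM, and no order is read from it.

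Member sums at 3 hr and 0 hr after grafting were compared with edgeR's quasi-likelihood test, with graft type as a covariate and 1 residual degree of freedom. The HH4-HH4 3 hr barcodes, members by the rule only, were among them. No gene of 4185 passed at an adjusted p of 0.05 (0% called), with 205 genes under an unadjusted p of 0.05, and DESeq2 called 17 genes, all higher. The edgeR test recovered 94.4% of genes changed 4-fold in simulated counts. These had the same spread beyond counting error for all genes, and libraries that differed otherwise only in total counts. They do not measure recovery in the real libraries. The genes with the smallest p, none past the threshold, were MT3, RPL37A and RPL29 upward and NFKBIA, SOX3 and JUN downward. MT3, a metallothionein, was at 130.1 and 113 CPM in the 3 hr libraries of HH8-HH4 and HH4-HH4, against 56.5 and 50.8 CPM at 0 hr, a log2 change of 1.26 ± 0.19 (SE, edgeR adjusted p = 0.511). NFKBIA, an inhibitor of NF-kB, was at 15.6 and 22.4 CPM at 3 hr, against 55.8 and 71.9 CPM at 0 hr. JUN, a subunit of AP-1, was at 88.5 and 66.6 CPM at 3 hr, against 159 and 149 CPM at 0 hr. The groups did not overlap for these genes, but the genes were picked by their small p. How many of all genes are separated in this way was not counted, so no change is read from it.

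SOX3 is a gene of the rule, whose UMI threshold admits lower levels in the deeper 3 hr libraries, so no p is given for it. RPL37A, a ribosomal protein, was at 3889.6 and 5177 CPM in members of the HH8-HH4 and HH4-HH4 libraries at 3 hr, against 2439 and 2649 CPM at 0 hr. RPL29, a further ribosomal protein, was at 3866 and 4948 CPM at 3 hr, against 2498 and 2623 CPM at 0 hr. Without HH4-HH4 3 hr no gene passed (740 under an unadjusted p of 0.05), and without HH8-HH4 3 hr 242 did, 172 higher and 70 lower, so this count rested on which 3 hr library stayed in. With 1 library per graft type and time, no condition was replicated. The p-values rest on how far the time difference varied between graft types, a spread that edgeR shares over genes. They do not rest on a spread between replicate pools. Time, depth and the identity of the HH4-HH4 3 hr members cannot be told apart.

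Members of HH8-HH4 were next set against those of HH4-HH4, to ask whether members without eGFP near an HH8 graft differed from members of HH4-HH4 grafts. The single call among 4185 genes (0.0239%) was eGFP, which the rule itself removes from HH8-HH4 members, and 18 genes were under an unadjusted p of 0.05. HOXA7, a Hox gene of older posterior tissue, had the smallest p of the genes higher in HH8-HH4, at 14.3 and 19.3 CPM in the 3 hr and 0 hr libraries of HH8-HH4, against 3.63 and 0.105 CPM in those of HH4-HH4. It did not pass, with a log2 difference of 4.29 ± 1.20 (SE, edgeR adjusted p = 1.00). The eGFP-positive barcodes of the same HH8-HH4 libraries had HOXA7 at 1099 and 2242 CPM. The part of free or shared RNA, or of donor cells without eGFP UMIs, in the members' HOXA7 was not tested. The next genes were ASL2 and NADK, an NAD kinase, upward and ARID3B and GSTM2, a glutathione transferase, downward, with log2 differences of 0.79 ± 0.23, 0.65 ± 0.20, -0.65 ± 0.21 and -0.61 ± 0.23 (SE), none past the threshold. Without HH4-HH4 3 hr no gene passed.

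Within HH4-HH4 the rule does not use eGFP, so donor and host members can be compared inside each library. Those of the 3 hr library are members by the rule only. Donor members, with at least 1 eGFP UMI, numbered 8 of 29 at 3 hr (27.6%, 12.7 to 47.2) and 142 of 548 at 0 hr (25.9%, 22.3 to 29.8), against donor shares of 34.4% and 36.8% among the other barcodes. Median depths were 54363 UMIs in donor and 49169 in host members at 3 hr, and 15912.5 and 15934.5 at 0 hr. Of 4114 genes 21 passed the edgeR test with library as a block (0.51%), 14 higher and 7 lower in donor members. Of these 21, 18 had the same direction in both libraries. The test that picked them was fitted on the same libraries, so this count is no independent support. The share over all 4114 genes was not counted. The fit held 4 sums, donor and host from the same pools, with 1 residual degree of freedom. With so little spread of its own, each gene's p-value leans on a spread that edgeR shares over all genes. The p-values, however small, do not measure the spread between embryos. Of the donor members, 3 of 8 and 54 of 142 had only 1 or 2 eGFP UMIs, and the part of free eGFP RNA in them was not tested. With donor members of at least 3 eGFP UMIs (5 and 88) no gene passed (184 under an unadjusted p of 0.05), although the log2 differences of the genes named below were larger, at 1.63 for CHRD, 1.07 for MYH9, -1.80 for HYI and -2.44 for ENS-3. DESeq2 called 1 gene.

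CHRD had the smallest p. It was at 93.3 CPM in donor and 30.5 CPM in host members at 3 hr, and at 498 CPM in donor and 252 CPM in host members at 0 hr, a log2 difference of 1.12 ± 0.15 (SE, edgeR adjusted p = 8.4e-10). MYH9, the heavy chain of non-muscle myosin, was at 806 CPM in donor and 248 CPM in host members at 3 hr, and at 589 and 503 CPM at 0 hr, so most of its difference lay at 3 hr. WDR1, which helps to take actin filaments apart, and HNRNPKL, an RNA-binding protein, were also higher in donor members of both libraries.

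HINTW was higher in donor members too, at 7708 CPM in donor and 6652 CPM in host members at 3 hr and at 9091 and 4268 CPM at 0 hr. More than 500 CPM of it were found in 111 of 142 donor and 136 of 406 host members at 0 hr, and in 5 of 8 donor and 12 of 21 host members at 3 hr. Donor and host members of the 0 hr library thus differed in how many barcodes carried the W-linked gene, and sex, embryo line and grafting cannot be told apart in these differences.

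The direction was opposite between the libraries for the remaining 3 genes. FOXD3, a forkhead factor of epiblast and neural crest, was at 8.48 CPM in donor and 29.7 CPM in host members at 3 hr, but at 401 CPM in donor and 192 CPM in host members at 0 hr. ARHGAP15, a Rac-directed GTPase-activating protein, was at 4.24 and 14.4 CPM at 3 hr and at 84.5 and 20.4 CPM at 0 hr, in donor and then host members. ASTL, an astacin-type protease listed with early neural markers, was at 86.9 CPM in donor and 1.70 CPM in host members at 3 hr, and at 11.3 and 11.9 CPM at 0 hr. Each of these genes thus had the direction of its call in 1 of the libraries.

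Among genes lower in donor members, ENS-3, a further early neural marker, had no UMI in donor members and 9.33 CPM in host members at 3 hr, and 10.5 CPM in donor and 30.4 CPM in host members at 0 hr. CKS2, a cyclin-dependent kinase subunit, fell to 86.9 and 119.9 CPM in donor members, against 141 and 183 CPM in host members at 3 hr and 0 hr. APCDD1, a Wnt inhibitor at the cell surface, had a log2 difference of -0.61 ± 0.16 (SE, edgeR adjusted p = 0.0222). HYI, HIST1H101, DCTN3 and XPA were lower as well, with log2 differences of -1.10 ± 0.23, -0.69 ± 0.15, -0.57 ± 0.14 and -0.42 ± 0.11 (SE). The only listed genes among the 21 were CHRD, ASTL, ENS-3, APCDD1 and HINTW.

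**Figure D5:**
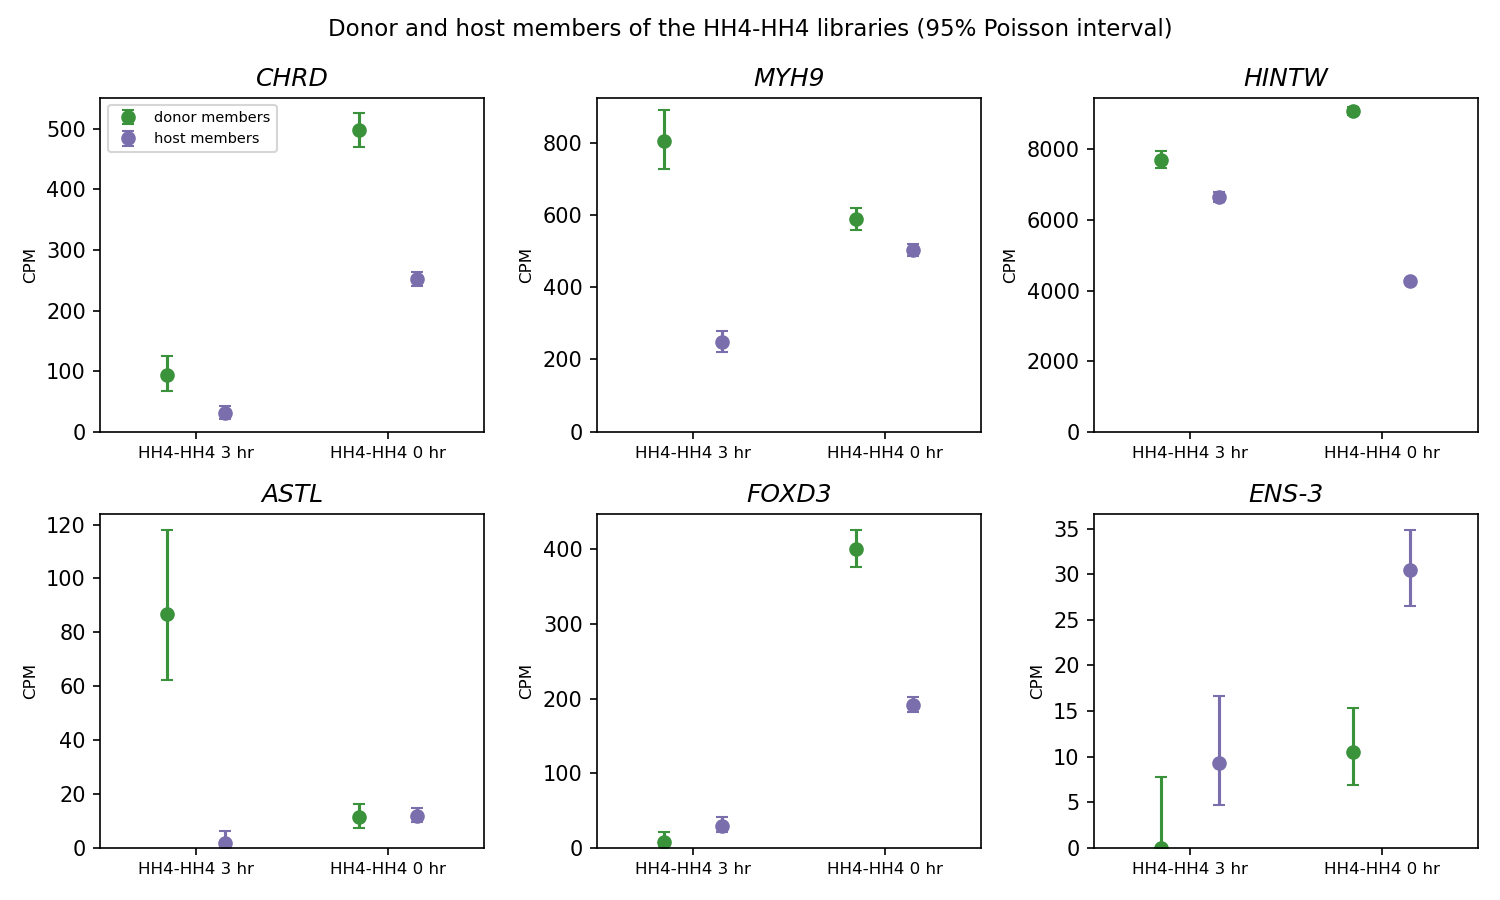
Levels in CPM (vertical axes) of 6 genes in donor members (green) and host members (purple) of HH4-HH4 3 hr and HH4-HH4 0 hr, with exact Poisson 95% intervals. CHRD is higher in donor members of both libraries (498 and 252 CPM in donor and host members at 0 hr), and FOXD3 lies in opposite directions.

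The last comparison asked whether the distance between members and the other barcodes differed at 3 hr from that at 0 hr. Members and other barcodes were separated by measured values, so the genes that edgeR marked are described by their levels, without p-values. They were 4 of 4735 (0.0845%), with CER1, whose level the rule limits, among them. The rule itself separated the groups compared, so being marked is no support for a difference. LDHA, lactate dehydrogenase A, was at 50.7, 65.7, 84.2 and 38.6 CPM in members, against 80.6, 356, 83.8 and 133 CPM in the other barcodes. It was thus far lower in members at 0 hr and nearer to the other barcodes at 3 hr, with a log2 difference of ratios of 1.87. CCN3, a matricellular protein, was at 15.6, 37.5, 50.9 and 24.2 CPM in members, against 45.7, 17.0, 103 and 13.6 CPM in the other barcodes. Members were below the other barcodes at 3 hr and above them at 0 hr in both graft types, a log2 difference of ratios of -2.10.

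LOC419390 was at 10.4, 22.0, 23.0 and 31.6 CPM in members, against 8.99, 5.56, 36.8 and 3.47 CPM in the other barcodes. Leaving out HH4-HH4 3 hr leaves a single library at 3 hr. The log2 differences of ratios were then 1.43 for LDHA, -2.49 for CCN3 and -2.51 for LOC419390, against 1.87, -2.10 and -3.26 with all libraries.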

How the data were processed

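The authors made 10x Genomics 3′ libraries, aligned reads to a reference transcriptome from the galGal6 assembly with Cell Ranger (version 6.1.1 per the file headers), and deposited UMI counts per gene and barcode, which are not normalised. The tables used list named genes (6940 per library, 6939 in HH4-HH4 3 hr) and were read as deposited, with cells called by the authors. Replicate 1 of HH4-HH4 0 hr lists gene IDs in place of names and shares 2755 barcodes with replicate 2, so it was used for its barcodes only and not counted as a second library. Members and gene lists were chosen with earlier results of these data known. No doublet caller was run, and very deep barcodes were left out in an alternative.

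Counts were summed per library over members and over the other barcodes and scaled to CPM, with exact Poisson intervals at 95%. Ratios used 10 CPM added. Named genes were those of the rule and the epiblast markers, the 12 highest and 8 lowest of the genes past 2-fold in every library, up to 8 genes per direction with the smallest p in each test (3 where fewer than 5 passed), and list members past the threshold or else the 2 with most UMIs. Other genes were named after their values were seen. Member sums were tested with edgeR 4.0.16 (quasi-likelihood, TMM, filterByExpr) in R 4.3.3, adjusted over all genes tested (Benjamini-Hochberg, threshold 0.05), and DESeq2 1.42.0 was an alternative. On simulated counts with 4-fold changes the edgeR test recovered 94.4% of changed genes for time, 93.3% for graft type, 96.9% for donor against host and 87.9% for the difference of ratios, with 9, 5, 6 and 3 wrong calls. Simulated counts had the same spread for all genes and no difference between libraries beyond total counts and the set change, so real recovery was not measured. Python 3.11.15, numpy 2.4.6, scipy 1.17.1, pandas 2.3.3 and matplotlib 3.10.9 were used. The total over the genes listed was 8970436 UMIs in HH8-HH4 3 hr, 37263719 in HH8-HH4 0 hr, 13218478 in HH4-HH4 3 hr and 40735693 in HH4-HH4 0 hr. Alternatives covered the marker sum, depth, eGFP rule, added CPM, filters, normalisation and libraries left out.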

Additional observations from a re-analysis of the deposited data

Results flagged for a closer look

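For 4 genes edgeR marked the difference between members and the other barcodes as unlike at 3 hr and 0 hr. The log2 of the ratio at 3 hr over that at 0 hr was -2.10 for CCN3, -3.26 for LOC419390, 1.87 for LDHA and 3.02 for CER1. Measured values separated members from other barcodes, and the rule limits CER1 itself, so these are descriptions. Without HH4-HH4 3 hr none was marked, and the values were -2.49 for CCN3, -2.51 for LOC419390, 1.43 for LDHA and 3.07 for CER1.

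Barcodes with eGFP in the HH8-HH4 libraries, which the rule leaves out, also met its other clauses. They were 7.91% of 177 such barcodes in HH8-HH4 3 hr (14 barcodes, exact interval 4.39 to 12.9) and 2.46% of 2239 in HH8-HH4 0 hr (55 barcodes, 1.86 to 3.19). No comparison of the report uses these barcodes. Of them, 8 and 31 had only 1 or 2 eGFP UMIs, and the part of free eGFP RNA was not tested. HOXA7 was at 14.3 and 19.3 CPM in members, against 629 and 896 CPM in these barcodes, and SOX3 at 204 and 449 CPM in members, against 211 and 433 CPM in these barcodes.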

How the results depend on the processing

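The share of barcodes that passed depended on the marker sum and on depth. A sum of 3 UMIs gave 19.5% in HH8-HH4 0 hr and 24.6% in HH4-HH4 0 hr, a sum of 10 UMIs gave 6.90% in HH8-HH4 3 hr, 7.94% in HH8-HH4 0 hr and 13.6% in HH4-HH4 0 hr, and 0 eGFP UMIs in every library gave 23.0% in HH4-HH4 0 hr. Thinned to 2000 UMIs, the shares were 0.862%, 1.04%, 0.366% and 1.07% in HH8-HH4 3 hr, HH8-HH4 0 hr, HH4-HH4 3 hr and HH4-HH4 0 hr, and thinned to 5000 UMIs, an alternative chosen after seeing the data, 2.69%, 9.18%, 1.89% and 9.13%. With 1 CPM added, 4 genes were higher and 61 lower, with 0 eGFP UMIs in every library 0 were higher and 22 lower, and without very deep barcodes 2 were higher and 31 lower. Leaving out a library gave 1 to 12 genes higher and 31 to 47 lower, both highest without HH4-HH4 3 hr.

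For time, DESeq2 called 17 genes (381 had an adjusted p) and leaving out a library gave 0 to 242, the 242 without HH8-HH4 3 hr. For graft type, DESeq2 (6 genes under an unadjusted p of 0.05), 0 eGFP UMIs in every library (16) and leaving out HH4-HH4 3 hr (32, added after seeing the data) gave 0 calls. For donor against host, at least 3 eGFP UMIs gave 0 calls and DESeq2 1, and FOXD3 reversed to -0.27 under DESeq2. Leaving out either library there leaves no residual degree of freedom. For the difference of ratios, DESeq2 gave 7 calls, no filter 79 and leaving out HH4-HH4 3 hr 0 (added after seeing the data). The cause of these differences was not tested. Counting each named gene once per alternative, 254 ratios against other barcodes stayed within the spread between libraries and 16 moved, 14 of them with 1 CPM added. Counted in the same way, 120 tested values stayed on their side of the threshold, whether past it or not, 34 no longer passed, 11 newly passed and 1 reversed. Each condition held a single counted library, so no comparison could be paired over replicates. Time was tested with graft type as a covariate, and graft type with time as a covariate. Donor and host sums were paired within each library by the library block.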
